A study of Mus musculus with 10 samples.

Results

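The genes of oxidative phosphorylation were measured in livers of *db/db* mice that received AAV8-Control. Genes were taken by symbol: those beginning with mt-, Nduf, Uqcr, Atp5 or Cox followed by a digit from 4 to 8, and the symbols Sdha, Sdhb, Sdhc and Sdhd. They were 99 of the 15126 genes in the deposited table, of which 91 are encoded in the nucleus and 8 in the mitochondrial genome. The 8 were mt-Nd1, mt-Nd2, mt-Nd3, mt-Nd4, mt-Nd5, mt-Nd6, mt-Cytb and mt-Co1. The rule dropped no mt- gene. No other mt- gene was listed, so the mitochondrial share below covers these 8 alone, and none of them belongs to complex V.

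The 5 animals were leptin receptor-deficient *db/db* mice, a genetic model of obesity and diabetes, and were 10 weeks old. Each had received adeno-associated virus serotype 8 encoding eGFP by tail vein 5 weeks earlier. Poly-A-selected RNA of whole liver was sequenced, without a step that keeps the strand, although the sample labels also name primary hepatocytes, and each library is 1 mouse. No comparison between groups is made, and the values describe these livers.

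Oxidative phosphorylation passes electrons from NADH (complex I) and succinate (complex II) through complex III to oxygen at complex IV, and the proton gradient that is built up drives ATP synthesis at complex V. Complexes I, III, IV and V hold a few subunits encoded in mitochondrial DNA beside many that are encoded in the nucleus and imported, whereas complex II is entirely nuclear. The hepatocyte, rich in mitochondria, uses this pathway to pay for gluconeogenesis and the urea cycle.

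Libraries held 19499795 to 35498596 reads counted on genes. Values are CPM, the reads of a gene scaled to the total of those reads, and means are given with their SD (n = 5). Levels of different genes are compared as CPM per kilobase of the principal transcript. Hepatocyte markers were high in every library (8 of 8 listed, summed at 99713 to 134641 CPM). Summed markers of macrophages reached 107 to 215 CPM (7 of 7 listed), of endothelium 98.0 to 202 CPM (6 of 6), of stellate cells and fibroblasts 232 to 309 CPM (6 of 6), of bile duct 33.5 to 53.9 CPM (5 of 5), of red blood cells 236 to 297 CPM (5 of 5) and of lymphocytes 4.06 to 7.90 CPM (6 of 6). Muscle markers (2 of 5 listed) and fat markers (3 of 4) summed to at most 0.109 and 1.74 CPM. Fewer cells of a type and less RNA per cell cannot be told apart in such bulk samples.

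Among the nuclear genes, the promoters of 76 were in the RefSeq table of build GRCm38.p6, and they were searched on both strands, from 250 bases before to 50 after the start, for letters that factors of mitochondrial biogenesis are known to bind. The NRF1 letters GCGCATGCG were in 10 of the 76 promoters (13.2%, against 2.61% of the promoters of all 17486 coding genes), and the YY1 letters AAGATGGCG in 9 (11.8% against 2.13%). The ETS letters CCGGAAG, bound by GABPA, were in 18 (23.7% against 13.0%), and the estrogen-related receptor (ERR) letters AAGGTCA in 8 (10.5% against 4.74%). The CREB letters TGACGTCA were in 4 (5.26% against 2.55%), and the SP1 letters GGGCGG in 34 (44.7% against 49.2%). The upstream 250 bases of 3 genes are printed 5′ to 3′, with capitals for the NRF1, ETS and ERR letters alone, and SP1 letters that also occur are left in lower case. *Ndufaf4*, a complex I assembly factor, carries the NRF1 letters on the forward strand at bases 113 to 105 before the start and, shifted by a base, on the reverse strand (chr4:24897833-24898082, plus strand). *Ndufb6*, a complex I subunit of the membrane arm, carries the ETS letters on the reverse strand at bases 232 to 226 (chr4:40279422-40279671, minus strand). *Atp5g3*, which encodes the c subunit of the rotating ring of complex V, carries the ERR letters on the reverse strand at bases 52 to 46 (chr2:73911327-73911576, minus strand). A match of letters is a description and not a measured binding site.
Ndufaf4: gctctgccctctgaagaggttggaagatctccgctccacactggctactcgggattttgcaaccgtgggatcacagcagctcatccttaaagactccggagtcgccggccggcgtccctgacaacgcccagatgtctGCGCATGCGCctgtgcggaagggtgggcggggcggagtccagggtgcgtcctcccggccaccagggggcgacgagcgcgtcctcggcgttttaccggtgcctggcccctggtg
Ndufb6: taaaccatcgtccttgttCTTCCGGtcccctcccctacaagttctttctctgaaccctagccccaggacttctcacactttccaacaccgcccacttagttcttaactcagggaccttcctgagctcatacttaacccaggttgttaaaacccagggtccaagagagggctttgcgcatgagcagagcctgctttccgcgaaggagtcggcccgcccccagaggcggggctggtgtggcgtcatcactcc
Atp5g3: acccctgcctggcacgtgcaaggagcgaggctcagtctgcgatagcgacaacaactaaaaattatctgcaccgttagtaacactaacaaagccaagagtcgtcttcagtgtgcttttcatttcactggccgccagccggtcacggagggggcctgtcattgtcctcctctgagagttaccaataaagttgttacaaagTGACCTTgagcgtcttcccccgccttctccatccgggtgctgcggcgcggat

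The nuclear genes were expressed at high levels in these livers. A mean of at least 1 CPM was reached by 84 of the 91 nuclear and 7 of the 8 mitochondrial genes. Per kilobase, the 84 had a median of 109.7 CPM, against 5.27 CPM for the 11041 genes of the table at that mean. Without scaling to length these medians were 88.2 and 15.9 CPM. Their principal transcripts were short, with a median of 870 bases against 2863 bases. Summed, the 91 took 1.34, 1.33, 1.28, 1.22 and 1.30% of the reads of all listed genes in replicates 1 to 5, a mean of 1.29% ± 0.0480 (SD, n = 5). The 7 nuclear genes under 1 CPM were *Ndufs5*, *Atp5g2* and the isoforms *Cox4i2*, *Cox6a2*, *Cox6b2*, *Cox7a1* and *Cox8b*.

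Nuclear subunits had the highest median level per kilobase in complex IV and the lowest in complex I. The 11 of complex IV had a median of 300.8 CPM per kilobase, the 4 of complex II 178, the 8 of complex III 163.6, the 14 of complex V 159 and the 35 of complex I 97.8. Subunits classed as core had a median of 153.6 over 19 genes, and those classed as accessory one of 115 over 53 genes. The core class holds no nuclear gene of complex IV, and not all of its genes carry a catalytic centre, as with the membrane anchors *Sdhc* and *Sdhd*. The 11 assembly factors stood lower, at a median of 12.1. With the longest coding transcript of each gene the median of complex IV was 205, still the highest, and that of complex I 88.6. Without scaling to length, complex II had the highest median, at 312 CPM, followed by III at 190, IV at 151, V at 137 and I at 85.2. These medians were not tested against each other, and the ranges of the complexes overlapped.

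**Figure D1:**
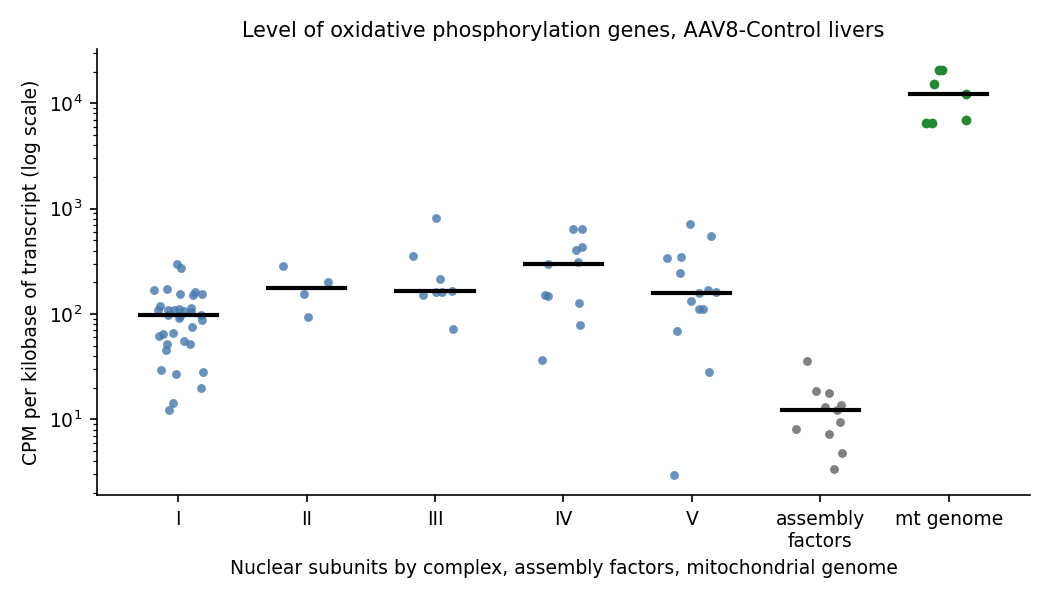
Mean CPM per kilobase of transcript over the 5 AAV8-Control livers, on a log axis, for each gene averaging 1 CPM or more (points; black bars, medians). Nuclear subunits are blue, assembly factors grey and mitochondrially encoded genes green; the green points start at 6471 CPM per kilobase, and the highest blue point is at 813.

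In complex I, the largest complex and the entry point of NADH, the 35 nuclear subunits that averaged 1 CPM or more ran from 12.2 CPM per kilobase for *Ndufab1*, the mitochondrial acyl carrier protein, to 295 for *Ndufb9*, an accessory subunit of the membrane arm. With the longest transcripts *Ndufb2* was the lowest, at 2.79. Of the windows of *Ndufab1* and *Ndufb2*, 31.2% and 33.5% occur in another gene. *Ndufb9* was measured at 234, 209.8, 204, 190.2 and 202 CPM in replicates 1 to 5. It was highest in replicate 1 and lowest in replicate 4. Subunits of the matrix arm had a median of 100.6 over 16 genes and those of the membrane arm one of 98.2 over 18. The 9 genes for complex I assembly had a median of 12.1. *Ndufs5*, the one nuclear subunit of complex I under 1 CPM, averaged 0.414 ± 0.148 CPM, from 6 to 14 reads per library. For its transcript, 41.2% of the 50-base windows, the length of a read, occur letter for letter in another annotated gene. Uniquely aligned reads cannot be counted there.

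Complex II, succinate dehydrogenase, also works in the citric acid cycle. Its flavoprotein *Sdha* was measured at 568, 582, 583, 569 and 632 CPM in replicates 1 to 5. Replicate 5 stood above the other 4. The iron-sulfur subunit *Sdhb* had the highest level per kilobase of the 4 genes, at 287 CPM, followed by *Sdha* at 202. The membrane anchors *Sdhd* and *Sdhc* stood at 154 and 93.4. All 4 varied little, with coefficients of variation (SD divided by the mean) from 2.74% to 5.41%.

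In complex III, the cytochrome bc1 complex, *Uqcrq* stood at 813 CPM per kilobase of its principal transcript, the highest of the nuclear genes by that measure, but at 216 with its longest transcript, below *Uqcr10* at 355 and *Atp5b* at 717. It was measured at 359, 361, 342, 287 and 297 CPM in replicates 1 to 5, with replicate 4 the lowest. *Uqcrb*, a small subunit at the ubiquinone site, was the lowest of the 8, at 71.7, but 43.4% of its windows are shared with other annotated genes.

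Complex IV, cytochrome c oxidase, has subunits in alternative isoforms, and the livers carried those of the liver type. *Cox4i1* was measured at 333, 311, 302, 268 and 285 CPM in replicates 1 to 5, or 402 CPM per kilobase, while its lung-type partner *Cox4i2* stood at 0.262. *Cox6a1* and *Cox8a* stood at 638 and 634 CPM per kilobase. Their heart and muscle forms *Cox6a2* and *Cox8b* held 0 to 3 and 0 to 1 reads per library. *Cox7a2* stood at 128 CPM per kilobase, against 1.9 for the muscle form *Cox7a1*. *Cox6b1*, which faces the intermembrane space, stood at 314, and its testis form *Cox6b2* at 0.417. *Ndufa4*, a complex IV subunit in spite of its symbol, stood at 435, and *Ndufa4l2*, its partner known to be induced in hypoxia, at 2.29. *Cox7a2l*, a factor for supercomplex assembly, averaged 38.3 ± 2.18 CPM. The lowest of the 11 subunits per kilobase was *Cox7c*, at 36.9, with 53.0% of its windows shared.

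In complex V, the ATP synthase, *Atp5b*, the catalytic beta subunit, had the highest level per kilobase, at 717 CPM. It was measured at 1452, 1351, 1370, 1312 and 1386 CPM in replicates 1 to 5. Its partner in the catalytic part, the alpha subunit *Atp5a1*, stood at 547. Of the 3 genes that encode the same mature c subunit, *Atp5g3* carried most of the signal, at 351 CPM per kilobase, against 28.1 for *Atp5g1* and 2.26 for *Atp5g2*. With its longest transcript *Atp5g1* was at 3.55. Of their windows, 66.0% for *Atp5g1* and 100% for *Atp5g2* occur in another gene, and none for *Atp5g3*, so the levels of *Atp5g1* and *Atp5g2* are uncertain. The same holds for *Atp5l*, the g subunit, the lowest of the 14 subunits that averaged 1 CPM or more, at 2.96 with 84.9% of its windows shared.

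Among the nuclear genes that averaged 1 CPM or more, the 29 with 10% or more of their windows shared had a median of 97.8 CPM per kilobase, against 112 for the 55 with less, and the 5 with 50% or more shared had a median of 36.9. With genes under 1 CPM included, these medians were 79.1 over 31, 108 over 60 and 32.5 over 6. The differences and the part of lost reads in them were not tested.

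The mitochondrially encoded genes were far more abundant. The 7 that averaged 1 CPM or more had a median of 12118 CPM per kilobase. *mt-Co1*, the catalytic subunit of complex IV, stood at 20903 and *mt-Cytb*, cytochrome b of complex III, at 20840, a difference smaller than the SD of either. *mt-Nd1* and *mt-Nd2* of complex I followed at 15228 and 12118. *mt-Nd5*, *mt-Nd4* and *mt-Nd6* were at 6942, 6557 and 6471, neighbours that differ by less than their SDs. *mt-Co1* was measured at 28957, 32797, 30650, 34293 and 34777 CPM in replicates 1 to 5. *mt-Nd6* is the only one of them read from the other strand, and its reads cannot be told from those of the opposite strand. *mt-Nd3* held 1 to 8 reads per library, and 98.0% of its windows occur in another annotated gene, as do 62.2% for *mt-Nd4* and 51.1% for *mt-Co1*, so counts of uniquely aligned reads leave out part of their signal.

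Summed, the 8 mitochondrial genes took 10.1, 10.9, 10.7, 11.3 and 12.2% of the reads of all listed genes in replicates 1 to 5, a mean of 11.05% ± 0.765 (SD, n = 5). The ratio of summed mitochondrial to nuclear CPM was 7.57, 8.20, 8.38, 9.27 and 9.36 in the same livers. Replicate 1 had the smallest mitochondrial and the largest nuclear share. Replicate 4 had the smallest nuclear share, and replicate 5 the largest mitochondrial one.

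The nuclear genes differed slightly between livers. Taking for each liver the median deviation of the 84 genes from their own means on the log2(CPM + 1) scale, replicates 1 to 5 were at 0.06, 0.05, -0.02, -0.07 and -0.01. Replicate 1 held the highest value of the 5 livers for 33 of the 84 genes, and replicate 4 the lowest for 44. Over all genes such counts were not made, so these are not shown to be particular to the pathway genes. In replicate 4 the medians of complexes I to V were -0.07, -0.05, -0.11, -0.10 and -0.07, all negative, and in replicate 1 all 5 were positive. In replicate 2 complex III was at -0.01 while the other complexes were between 0.02 and 0.08, and in replicate 3 it was at 0.03 while the others were between -0.03 and -0.02. The mitochondrial genes were at -0.11, -0.04, -0.05, 0.03 and 0.11. The 614 other genes with a transcript under 1000 bases stood at 0.04, 0.04, -0.00, -0.05 and -0.02 in the same livers, highest in replicate 1 and lowest in replicate 4 as for the nuclear pathway genes. The 3295 other genes of 4000 bases or more were at 0.09, -0.04, -0.01, -0.04 and 0.01, also highest in replicate 1 and lowest in replicate 2. These deviations rest on scaling to total reads. They were not computed with another scaling, which may change the order of the livers. The labels give a minimum RNA integrity for all libraries but no value for each, and its part in these deviations was not tested.

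**Figure D2:**
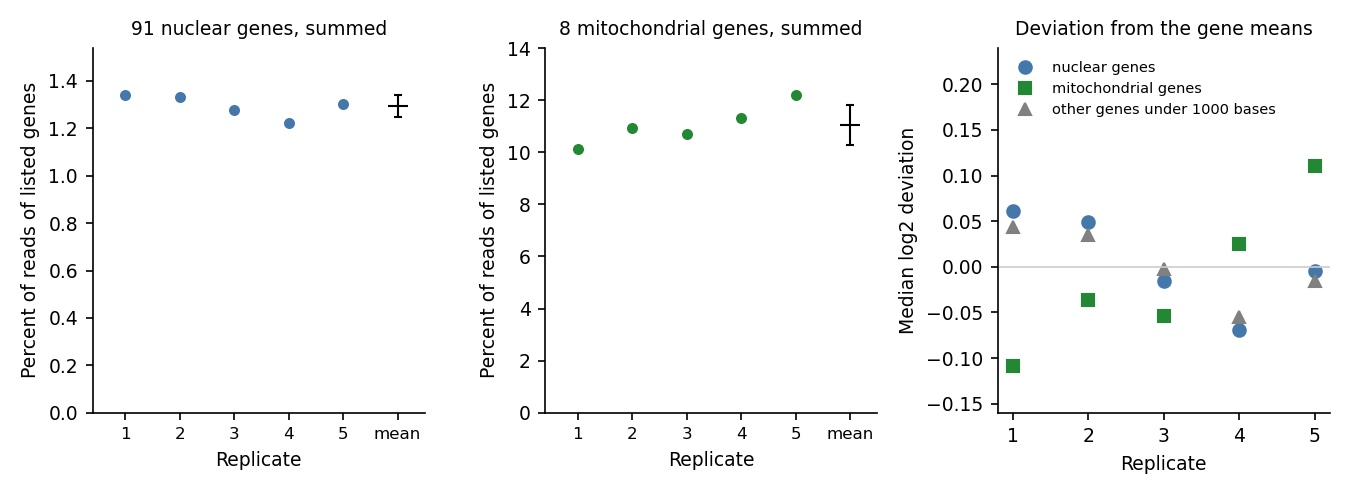
Left and middle, percent of the reads of all listed genes that fell on the 91 nuclear and the 8 mitochondrially encoded genes in each AAV8-Control liver, with mean and SD (n = 5). Right, median log2 deviation of the nuclear genes, the mitochondrial genes and 614 other genes under 1000 bases from their own means; replicate 1 is highest for the nuclear and lowest for the mitochondrial genes.

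The spread between livers was small for most members. The coefficient of variation had a median of 6.41% over the 84 nuclear genes and was under 10% for 70 of them. Over all 11041 genes averaging 1 CPM or more the median was 10.6%, and 5164 were under 10%. Over the 79 that averaged 10 CPM or more the median was 6.33%, beside 8.57% over all 6937 genes at that mean, a difference that was not tested. It was under 10% for 66 of the 79 and 4298 of the 6937. The 79 had a median level of 89.2 CPM against 31.1 CPM, and counting error is larger at lower levels. For 74 mitochondrial ribosomal protein genes averaging 1 CPM or more the median was 7.24%, at a median level of 25.9 CPM. Among these 79, *Atp5h*, the d subunit of the stalk, varied least, at 1.84% where counting error alone gives 3.07%. *Ndufa11*, *Sdhc*, *Ndufv2* and *Atp5c1* followed at 2.56%, 2.74%, 2.87% and 2.9%. *Atp5k*, the e subunit of complex V, varied most, at 17.2% against 2.63% from counting. It was measured at 70.0, 66.8, 57.6, 43.7 and 59.2 CPM in replicates 1 to 5. *Uqcr11*, *Atp5sl* (a complex I assembly factor in spite of its symbol), *Ndufa2* and *Ndufaf8* were next, at 15.6%, 15.5%, 13.4% and 13.3%. Of the 5, *Atp5k*, *Uqcr11*, *Ndufa2* and *Ndufaf8* were highest in replicate 1, and *Atp5sl* in replicate 4. The 7 mitochondrial genes that averaged 1 CPM or more ran from 6.15% for *mt-Nd5* to 14.2% for *mt-Nd2*, and *mt-Nd3*, at few reads, was at 65.7%.

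**Figure D3:**
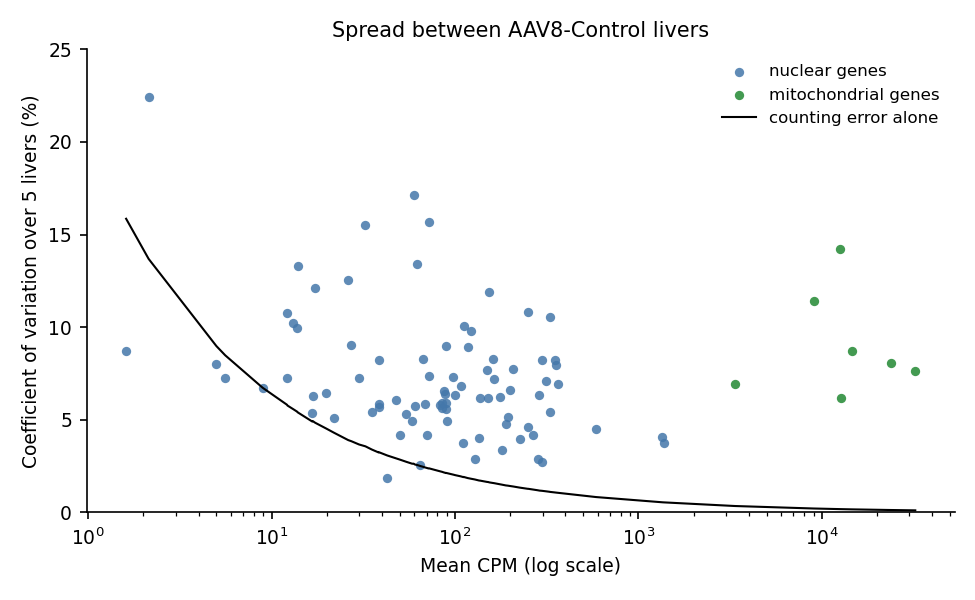
Coefficient of variation over the 5 AAV8-Control livers against mean CPM on a log axis for nuclear (blue) and mitochondrially encoded (green) genes averaging 1 CPM or more, with the spread that counting error alone gives as a line. Most points lie above the line, and 75 of the 91 lie under 10%, beside 5164 of all 11041 genes averaging 1 CPM or more.

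Genes that serve the pathway but are outside the symbols above covered a wide range. The 18 electron carriers and links had a median of 107 CPM per kilobase, close to the 109.7 of the nuclear members. *Etfb*, a subunit of the electron transfer flavoprotein, was the highest at 242, though 67.3% of its windows occur in another gene. *Cyc1*, cytochrome c1 of complex III, stood at 206. *Cycs*, cytochrome c, was the lowest at 0.92, from 43 to 92 reads per library, and its level is uncertain, as 28.5% of its windows occur in another gene. The 13 coenzyme Q genes had a median of 13.6, led by *Coq8a* at 128, which also varied widely (17.7%). A list of 42 assembly factors and associated proteins, among them *Atpif1*, the ATP synthase inhibitor, and *Usmg5*, a small ATP synthase subunit, had a median of 11.2, beside 12.1 for the 11 assembly factors taken by symbol.

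Genes for mitochondrial DNA and RNA stood lower, with a median of 5.80 CPM per kilobase over 28 genes. *Lrpprc*, which stabilises mitochondrial messages, stood at 21.8, and *Tfam*, which packages mitochondrial DNA and starts its transcription, at 9.85. The 21 nuclear regulators had a median of 3.77. *Ppara*, the fatty acid receptor of the hepatocyte, stood at 48.9, *Gabpa* at 17.9, *Esrra* at 11.5 and *Yy1* at 4.14. With the longest transcripts *Ppara* stood at 29.5 and *Gabpa* at 7.92, below *Esrra*.

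Median levels of nuclear members with and without the letters in their promoters differed in both directions, depending on the factor. The spread within these sets of genes was not compared. The 18 with the ETS letters had a median of 134 CPM per kilobase against 98.6 for 53 without, and the 7 with the ERR letters one of 153.6 against 107.7 for 64 without. The 9 with the NRF1 letters had a median of 119 against 107.7 for 62 without, and the 9 with the YY1 letters one of 95.1 against 109.7. The 4 with the CREB letters had a median of 108.7 against 109 for 67 without, and the 32 with the SP1 letters one of 83.7 against 119 for 39 without. These differences were not tested.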

How the data were processed

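Single reads of 50 bases were aligned by the authors with STAR 2.0.4b to GRCm38.p2 (Ensembl release 76), and uniquely aligned, unambiguous reads were counted on genes with featureCounts 1.4.5, per the submitters' processing notes and the study's methods. The deposited values are CPM, scaled by the authors to all reads counted on genes. How this step was run is not given in the sources used here. The table holds 15236 lines for 15126 genes. Dividing a value by what 1 read is worth in its library gave whole reads, within 0.02, for 100% of values.

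The 5 AAV8-Control livers were used. Another group of the series, and every comparison with it, is not reported here, so the count tests and the fits between groups that had been planned were left out. Dixon's ratio was used to look for a liver far from the others, and a chi-square comparison to look for duplicates. Means, SDs and coefficients of variation were computed with pandas 2.3.3 in Python 3.11.15, with a minimum mean of 1 CPM over the 5 livers for medians over genes unless stated, and the computation of the spread was checked on simulated counts. Counting error is that of the recovered reads. The SDs measure the spread between these mice. No pair of libraries was a duplicate by a chi-square comparison of reads. Positions and transcripts came from GENCODE M21 (GRCm38), and promoters from RefSeq (GRCm38.p6). Length and 50-base windows are those of the principal transcript, the coding one with the best APPRIS rank, then the best support level, then the shortest. The longest coding transcript had been used at first and was replaced after its lengths were seen.

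The members and gene lists were chosen with earlier results of these data known. Named were all mitochondrial members, the 4 Sdh genes, the most and least abundant nuclear subunit of each complex per kilobase and isoform sets. The 5 most and 5 least variable nuclear genes of at least 10 CPM, *Ndufs5*, *Atp5a1*, *Ndufb2*, *Uqcr10* and the pathway genes outside the symbols were named after values were seen. For the NRF1, ETS and ERR letters, the printed promoter is that of the most abundant gene per kilobase that fits a rule. The letters had to be in the 250 upstream bases, with no annotated exon there, and genes on chromosome 18 were not considered. This rule was also set after values were seen, and replaced earlier ones. For the YY1 letters no gene was left.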

Additional observations from a re-analysis of the deposited data

Results flagged for a closer look

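The 5 AAV8-Control livers were searched for a value far from the other 4 by Dixon's ratio, whose 95% limit for 5 values is 0.71, in 32 named genes and summed measures; chance gives such a value in about 1 group in 20. It was found for 1 of them: *Sdha* was at 632 CPM in replicate 5, above the other 4 livers (ratio 0.765).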

How the results depend on the processing

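The mitochondrial share of reads, 11.05%, was 10.8% of all reads counted on genes and ran from 10.8 to 11.3% when single livers were left out. The nuclear share, 1.29%, was 1.27% of all reads and ran from 1.28 to 1.31%. The median level of the nuclear subunits, 123 CPM per kilobase, was 113 with the longest coding transcripts, since these are longer by construction, and ran from 122 to 125 without single livers. The median coefficient of variation of the nuclear genes, 6.41%, ran from 5.91 to 6.98% without single livers and was 6.18% with median-ratio size factors. The number of nuclear genes at 1 CPM or more, 84, ran from 84 to 85 without single livers, and 86 had at least 10 reads in every library. Except for the share of mitochondrial reads, these results and their alternatives were chosen after seeing the data. The alternatives set out for comparisons between groups were not run, as no such comparison is reported. At a depth of at least 19499795 reads, counting error limits the levels of genes near or under 1 CPM, and also the spread of some above it, such as *Atp5h*.

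No paired analysis was possible because only 1 group is reported, and pairs across groups are not formed.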
